A study of Homo sapiens with 16 samples.

Results

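Heparan sulfate proteoglycans and the hyaluronan receptor CD44 can bind hepatocyte growth factor (HGF) or present it to its receptor MET at the cell surface. Extracellular sulfatases remove sulfate groups from the proteoglycan chains, which alters what the chains bind. The 10 genes followed here were CD44, the syndecans SDC1, SDC2, SDC3 and SDC4, the glypicans GPC1 and GPC4, the sulfatases SULF1 and SULF2, and agrin (AGRN). They were chosen for these roles and found by gene name among 42665 gene names on the array. Together they had 13 of 58201 non-control probes, 2 each for CD44, SDC3 and AGRN and 1 for every other gene. Of these, 11 probes of 8 genes were bright enough to be tested, among 34600 tested probes in all.

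The study asked how loss of exon 14 of MET, which codes for a part of the receptor that limits its activity, changes the response of bronchial epithelial cells to HGF. The cells were 16HBE, a line of human bronchial epithelium immortalised with SV40. The groups were 16HBE-WT, which carry unedited MET, and 16HBE-ex14, a single clone (clone F) edited with CRISPR/Cas9 so that MET exon 14 is skipped. Each was measured without HGF and after HGF at 20 ng/mL for 24 h, all groups after 2 h of starvation, with 4 arrays per group and 16 in all. In the text the groups are WT, WT+HGF, ex14 and ex14+HGF. The titles of the 4 WT+HGF samples call the cells YY rather than WT, and these samples were placed in WT+HGF by their description. Because ex14 is 1 clone, differences between the genotypes cannot be told apart from differences between clones.

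A level is the log2 intensity of a probe minus the 75th percentile of its array, so that 0 is the brightness of the 75th percentile probe. Levels were compared between groups for the same probe and never between probes. Differences were tested with limma over all tested probes, and a probe was called when its Benjamini-Hochberg adjusted p was below 0.05 and its fold change above 1.5. The authors describe replicates separated from each other by a week of culture. Replicate numbers here follow slide and array row, and nothing in the files says which array came from which culture, so p-values measure the spread between these arrays.

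The 75th percentile lay between 140 and 263 intensity units over the 16 arrays, with a median of 172 in WT, 178 in WT+HGF, 232 in ex14 and 215 in ex14+HGF. Each array had 49% to 60.3% of its probes well above background, and no non-control spot was saturated. All 8 epithelial markers examined were above background on every array. The fibroblast markers COL1A2, COL3A1, DCN, PDGFRA and THY1 were above background on none. The MET probe, at chr7:116438290-116438349 on hg19, was above background on all 16 arrays and was called in no comparison. It covers 60 bases at that position only and was not used to check the loss of exon 14. The brighter of the 2 probes for HGF was above background on no array, and neither of them was bright enough to be tested.

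Syndecans are transmembrane proteins, glypicans are tethered to the outer membrane by a lipid anchor, and agrin is secreted into basement membranes. All of them carry heparan sulfate, a sulfated sugar chain that binds growth factors. SULF1 and SULF2 remove 6-O-sulfate groups from finished chains outside the cell, which alters what the chains bind. CD44 binds hyaluronan, and forms of it with variant exons can carry heparan sulfate or act with MET. In epithelia, SDC1 and SDC4 are found mostly on the basal and lateral surfaces, where they also take part in adhesion.

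The first 30 of 60 bases are shown for the probes on which the results below turn, since each value is the brightness of that one sequence and no other part of the transcript. Positions are those of the bases shown, on hg19 from the array annotation, which names the gene but not the exon or UTR. No base is singled out, so all are in lower case.
CD44, chr11:35253812-35253841, plus strand: gcacacccttcctctggtttttgtatattt
CD44 second probe, chr11:35244791-35244820, plus strand: caaagagtctttatacctcccttcagcttc
GPC1, chr2:241407118-241407147, plus strand: aggtccccggttgctggtcaggtccccatg
SDC1, chr2:20401365-20401394, minus strand: accctgggccctgggctggaatcaggaata
SDC4, chr20:43954608-43954637, minus strand: cctggtgccttctgatggggctggaatagt
SULF2, chr20:46286454-46286483, minus strand: aacctaataagaaatcccaattttcaggag
The annotation assigns the brighter CD44 probe to transcript variant 1 and the dimmer to variant 8, so the pair can report different transcripts of the gene. Isoforms with particular variant exons were not resolved.

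With HGF, ex14 cells had more CD44 RNA and less GPC1 RNA, and these were the only members called for that comparison. CD44 rose 1.74-fold and GPC1 fell 1.64-fold, each with all 4 stimulated arrays on the same side of all 4 unstimulated arrays. Over all tested probes, 693 were called in this comparison (2.00%), against 2 of the 11 member probes. Of the member probes, 8 were higher and 3 lower with HGF, with a median difference of 0.24 on the log2 scale, against 0.05 over all tested probes. In WT cells no member was called. No probe of any gene was called there either (0%), although 1694 of all tested probes and 1 member probe passed an unadjusted p below 0.05.

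CD44 is the cell-surface receptor for hyaluronan. Its level in ex14 was 5.39, 5.07, 5.77 and 5.26 on the 4 arrays, and in ex14+HGF it was 6.10, 6.15, 6.23 and 6.20. Every stimulated array was above every unstimulated one, and the stimulated arrays lay close together (mean 6.17 ± 0.06 against 5.37 ± 0.29, SD, n = 4 each). The log2 difference was 0.80 (SE 0.13, 95% interval 0.52 to 1.08, limma adjusted p = 0.00498). Within slide 1 it was 0.89 and within slide 2 it was 0.70, from 2 arrays per group in each.

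In WT the CD44 level was 5.13, 5.54, 5.39 and 5.36, and in WT+HGF it was 5.77, 5.55, 5.79 and 5.76. These groups also did not overlap, though WT+HGF replicate 2 was within 0.01 of WT replicate 2. The difference was 0.36 (SE 0.13, 95% interval 0.08 to 0.65), and it did not pass the adjustment over all probes (limma adjusted p = 0.92). The group means ran in the order ex14+HGF, WT+HGF, ex14 and WT. Of the neighbours in that order, ex14 and WT overlapped and differed by 0.02 (95% interval −0.27 to 0.30), WT+HGF and ex14 overlapped, and ex14+HGF was above all WT+HGF arrays.

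The second CD44 probe was much dimmer, at 55.3 to 121 intensity units. Its level was −1.55, −1.43, −1.62 and −1.49 in WT and −1.16, −1.59, −0.60 and −1.14 in WT+HGF. In ex14 it was −1.85, −1.69, −1.07 and −1.45, and in ex14+HGF it was −1.12, −0.81, −0.94 and −0.88. It pointed the same way as the brighter probe, but a single ex14 array, replicate 3, reached into the range of ex14+HGF. The HGF difference was 0.58 in ex14 (95% interval 0.17 to 0.98, limma adjusted p = 0.139) and 0.40 in WT (adjusted p = 1), so neither was called. Without ex14 replicate 3 the difference in ex14 was 0.72 and was called (limma adjusted p = 0.0411). Replicate 3 was also the highest of the ex14 arrays for the brighter probe and for SDC1.

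GPC1 is a lipid-anchored proteoglycan of the glypican family. In ex14 its level was 4.0, 4.32, 4.04 and 4.18, and in ex14+HGF it was 3.56, 3.45, 3.33 and 3.34. The lowest unstimulated array was well above the highest stimulated array. The log2 difference was −0.72 (SE 0.10, 95% interval −0.92 to −0.51, limma adjusted p = 0.00157), with −0.66 within slide 1 and −0.78 within slide 2. In WT the GPC1 level was 4.13, 4.14, 4.24 and 4.37, and in WT+HGF it was 4.05, 4.01, 4.01 and 4.19. Those groups overlapped, and the difference of −0.15 (95% interval −0.36 to 0.05) was not called (limma adjusted p = 1). For GPC1 the order of the means was WT, ex14, WT+HGF and ex14+HGF, and the first 3 overlapped with their neighbours while ex14+HGF stood below them all.

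**Figure D1:**
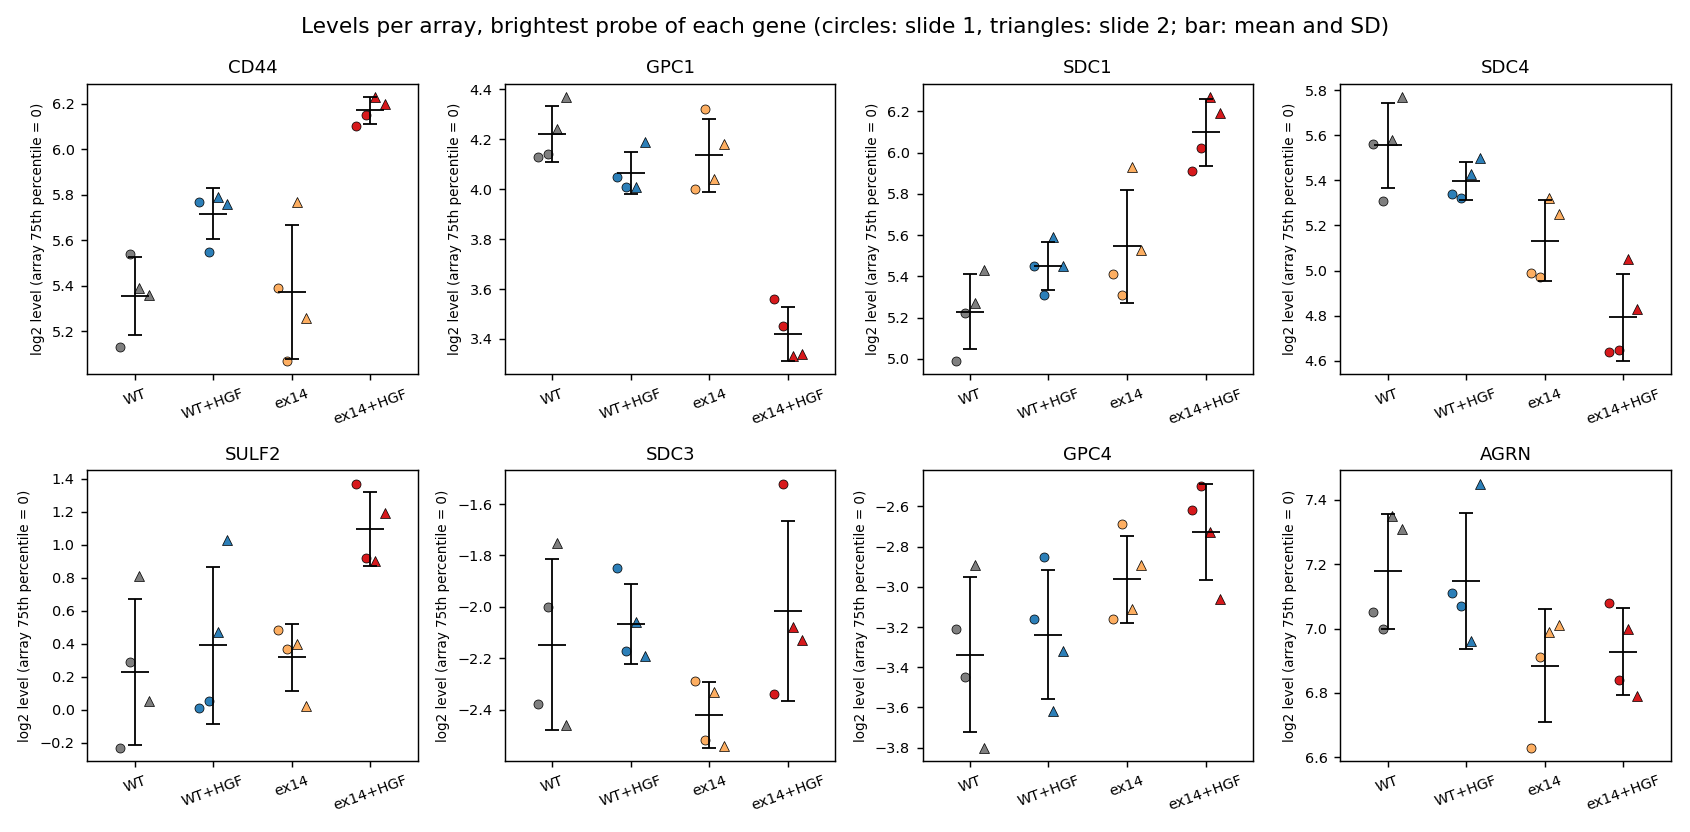
Levels of the 8 tested members on each array, with the brightest probe standing for each gene. Points are arrays (circles slide 1, triangles slide 2), the horizontal bar is the group mean with its SD (n = 4), and the vertical axis is the log2 intensity relative to the 75th percentile of the array, with a separate range in each panel. The ex14+HGF arrays are apart from the other 3 groups for CD44 (6.10 to 6.23) and GPC1 (3.33 to 3.56), while SDC3, GPC4 and AGRN overlap between groups.

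SDC1 carries both heparan and chondroitin sulfate and is the main syndecan of simple and stratified epithelia. Its level was 4.99, 5.22, 5.27 and 5.43 in WT and 5.45, 5.31, 5.59 and 5.45 in WT+HGF. In ex14 it was 5.41, 5.31, 5.93 and 5.53, and in ex14+HGF it was 5.91, 6.02, 6.27 and 6.19. Only ex14 replicate 3 lay inside the range of ex14+HGF, above replicate 1 of that group. The difference with HGF in ex14 was 0.55 (SE 0.14, 95% interval 0.26 to 0.85, limma adjusted p = 0.045), a fold of 1.47, under the fold limit and so not called. Without ex14 replicate 3 the difference was 0.68 (adjusted p = 0.00634) and it was called, as it was without ex14+HGF replicate 1 (0.61, adjusted p = 0.0435). In WT the difference was 0.22 (95% interval −0.07 to 0.52, adjusted p = 1).

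SULF2, a sulfatase that edits heparan sulfate outside the cell, had a level of −0.23, 0.29, 0.81 and 0.05 in WT and 0.01, 0.05, 0.47 and 1.03 in WT+HGF. It was 0.48, 0.37, 0.40 and 0.02 in ex14 and 1.37, 0.92, 0.90 and 1.19 in ex14+HGF. The ex14 and ex14+HGF arrays did not overlap, whereas the WT and WT+HGF arrays overlapped and spread from −0.23 to 1.03. The means ran in the order ex14+HGF, WT+HGF, ex14 and WT, and every neighbouring pair overlapped. The difference with HGF in ex14 was 0.77 (SE 0.24, 95% interval 0.26 to 1.29), a fold of 1.71, and it did not pass the adjusted p (limma adjusted p = 0.116). With normexp background correction it was 0.66 and was called (adjusted p = 0.0383). In WT the difference was 0.16 (95% interval −0.36 to 0.67, adjusted p = 1).

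SDC4, the syndecan of focal adhesions, had values on the other side. Its level was 4.99, 4.97, 5.32 and 5.25 in ex14 and 4.64, 4.65, 5.05 and 4.83 in ex14+HGF, with a difference of −0.34 (95% interval −0.60 to −0.08, limma adjusted p = 0.192). In WT it was 5.56, 5.31, 5.58 and 5.77, and in WT+HGF it was 5.34, 5.32, 5.43 and 5.50, with a difference of −0.16 (adjusted p = 1). The arrays with and without HGF overlapped in both genotypes.

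For SDC3, GPC4 and AGRN no HGF difference was called in either genotype. Over all 16 arrays the level of SDC3 ran from −2.54 to −1.52, that of GPC4 from −3.80 to −2.50 and that of AGRN from 6.63 to 7.45, and for each gene the arrays with and without HGF overlapped. SDC3, a syndecan best known from nervous tissue, had a difference of 0.40 in ex14 (95% interval 0.01 to 0.79, limma adjusted p = 0.327) and 0.08 in WT, and its second probe gave 0.19 and 0.13. GPC4, another glypican, gave 0.24 and 0.10, at only 11.4 to 42.6 intensity units, and WT+HGF replicate 3 was not well above background. AGRN was bright, between 17400 and 35600 intensity units, and its interval in ex14 ran from −0.24 to 0.32 around 0.04, so that a change past the fold limit lay outside it. Its second probe gave −0.03 in ex14 (95% interval −0.28 to 0.22) and −0.11 in WT. The signs of the AGRN difference in ex14 and of the SDC3 and GPC4 differences in WT turned under other scalings of the arrays.

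SDC2 and SULF1 were not well above background on any of the 16 arrays. SDC2, a syndecan prominent in mesenchymal cells, read 1.83 to 3.83 intensity units, and SULF1, the other extracellular sulfatase, 1.61 to 2.34. The lowest level called well above background was −4.40 as a median over arrays (range −4.95 to −3.77), so transcripts below it could not be compared between groups at this sensitivity.

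**Figure D2:**
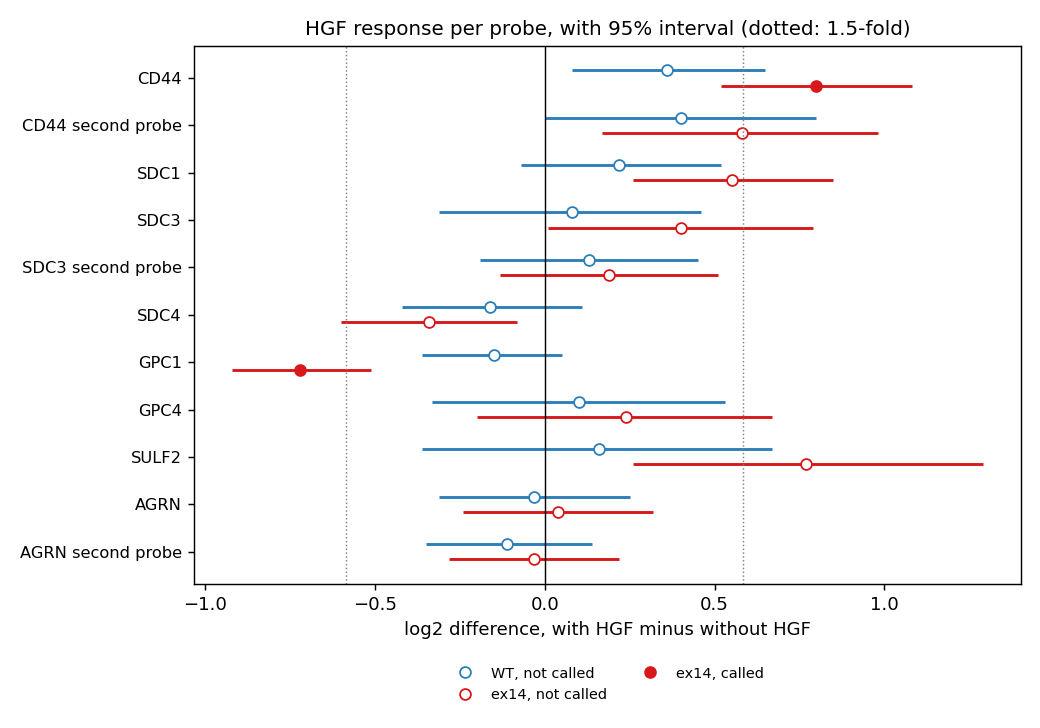
Response to HGF of the 11 tested member probes in WT (blue) and ex14 (red). Points are log2 differences, with HGF minus without, lines are limma's 95% intervals from 4 arrays per group, filled points were called and dotted lines mark a 1.5-fold change. Only CD44 (0.80) and GPC1 (−0.72) in ex14 were called.

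Whether HGF acted differently in the genotypes was tested as the difference between both responses. No member was called, nor was any of the 34600 tested probes (0%), of which 1600 passed an unadjusted p below 0.05. Among the members 2 did so, GPC1 and CD44. The GPC1 response in ex14 minus that in WT was −0.56 (SE 0.14, 95% interval −0.85 to −0.27, limma adjusted p = 0.459). The same difference for CD44 was 0.43 (95% interval 0.04 to 0.83, limma adjusted p = 1). For SULF2 the interval ran from −0.11 to 1.34, and for SDC1 from −0.09 to 0.75. A response called in ex14 and not in WT is therefore not shown here to differ between the genotypes.

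The genotypes were also compared directly. Without HGF no member was called between ex14 and WT, while 3252 of all tested probes were (9.40%). With HGF in both, 3 of the 11 member probes were called against 10.8% of all tested probes, with SDC1 higher and SDC4 and GPC1 lower in ex14+HGF. The median member difference was −0.08 without HGF and 0.05 with it, against −0.02 and 0 over all tested probes. The comparison with HGF uses the same ex14+HGF arrays as the HGF response in ex14, so the GPC1 values in both are not independent.

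All 4 SDC1 levels in ex14+HGF, given above, exceeded all 4 in WT+HGF, and the difference was 0.65 (SE 0.14, 95% interval 0.35 to 0.94, limma adjusted p = 0.00382). It was 0.59 within slide 1 and 0.71 within slide 2. Without HGF the SDC1 difference was 0.32 (95% interval 0.02 to 0.61, adjusted p = 0.134), and the groups overlapped. The order of the SDC1 means was ex14+HGF, ex14, WT+HGF and WT, with every neighbouring pair overlapping. With quantile normalization the difference with HGF was 0.56 and under the fold limit.

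For SDC4 all 4 ex14+HGF arrays were below all 4 WT+HGF arrays. The difference was −0.61 (SE 0.12, 95% interval −0.87 to −0.34, limma adjusted p = 0.00278), a fold of 1.52, just past the limit. It fell under that limit with scaling to the spike-ins (−0.55) or to array medians (−0.51), with normexp (−0.51), and without ex14+HGF replicate 1 (−0.56), ex14+HGF replicate 2 (−0.56) or WT+HGF replicate 4 (−0.57). Without HGF the SDC4 difference was −0.42 (95% interval −0.69 to −0.16), which passed the adjusted p (0.0275, limma) but not the fold limit, and WT replicate 2 lay just inside the range of ex14. Its means ran from WT through WT+HGF and ex14 to ex14+HGF. WT overlapped with WT+HGF and ex14 with ex14+HGF, and the lowest WT+HGF array and the highest ex14 array met at 5.32.

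GPC1 differed by −0.65 between the stimulated genotypes (SE 0.10, 95% interval −0.85 to −0.44, limma adjusted p = 0.000277), with no overlap. Within slides the difference was −0.53 and −0.77. It was under the fold limit with normexp and with scaling to the array median (−0.55 in each). Without HGF it was −0.08 (95% interval −0.29 to 0.12, adjusted p = 0.622), and its sign turned with scaling to the median (0.05) or the spike-ins (0.03).

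CD44 with HGF was higher in ex14 by 0.45 (95% interval 0.17 to 0.73, limma adjusted p = 0.0247), with no overlap but a fold of 1.37, so it was not called. SULF2 with HGF differed by 0.70 (95% interval 0.19 to 1.22), a fold of 1.63 with an adjusted p of 0.051. Its values rested on the slide, with 1.11 within slide 1 and 0.29 within slide 2. With slide as a block the difference of 0.70 was called (limma adjusted p = 0.0404). It was also called with normexp, quantile normalization, array medians, the trended prior and the filter on all arrays, on slide 1 alone, and without WT replicate 1 or 3. Without WT+HGF replicate 4, the highest array of that group, it was 0.92 and was called (limma adjusted p = 0.0108).

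The second SDC3 probe was lower in ex14 both without HGF (−0.50, limma adjusted p = 0.0295) and with HGF (−0.45, adjusted p = 0.0468), under the fold limit in both. Its level was −2.99, −2.63, −2.54 and −2.93 in WT and −3.18, −3.35, −3.39 and −3.20 in ex14. These 2 groups did not overlap, but the brighter SDC3 probe gave −0.27 without HGF (adjusted p = 0.35) and 0.05 with it (adjusted p = 0.884), so the probes of this gene disagreed. The second AGRN probe was 4.26, 4.16, 4.59 and 4.47 in WT and 3.81, 4.04, 4.05 and 4.01 in ex14, again without overlap. It differed by −0.39 (limma adjusted p = 0.0286), a fold of 1.31, and the brighter AGRN probe by −0.29 (adjusted p = 0.145). GPC4 was 0.38 higher in ex14 without HGF (adjusted p = 0.235) and 0.51 higher with it (adjusted p = 0.0931). Neither was called, and with normexp the differences were −0.06 and −0.01.

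The log2 of the summed signal of the 8 fibroblast markers was −0.79 to 0.13 in WT, −0.73 to −0.27 in WT+HGF, −1.5 to −0.92 in ex14 and −1.22 to −1.11 in ex14+HGF. LUM was the only one of them called between the genotypes. It differed, as fitted, by −3.66 without HGF (limma adjusted p = 2.94e-06) and by −3.48 with it (adjusted p = 3.7e-06). COL1A1 gave −0.56 and −0.60 and PDGFRB gave −0.53 and −0.33, none of them called. Of the 8 markers, 3 (COL1A1, LUM and PDGFRB) were above background on all 4 arrays in both WT groups. In both ex14 groups 2 were, with LUM above background on no array. COL1A2, COL3A1, DCN, PDGFRA and THY1 were above background on none of the 16 arrays. The part of the fibroblast markers in the genotype differences was not tested. Here and throughout, fewer cells of a type and less RNA per cell cannot be told apart.

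**Figure D3:**
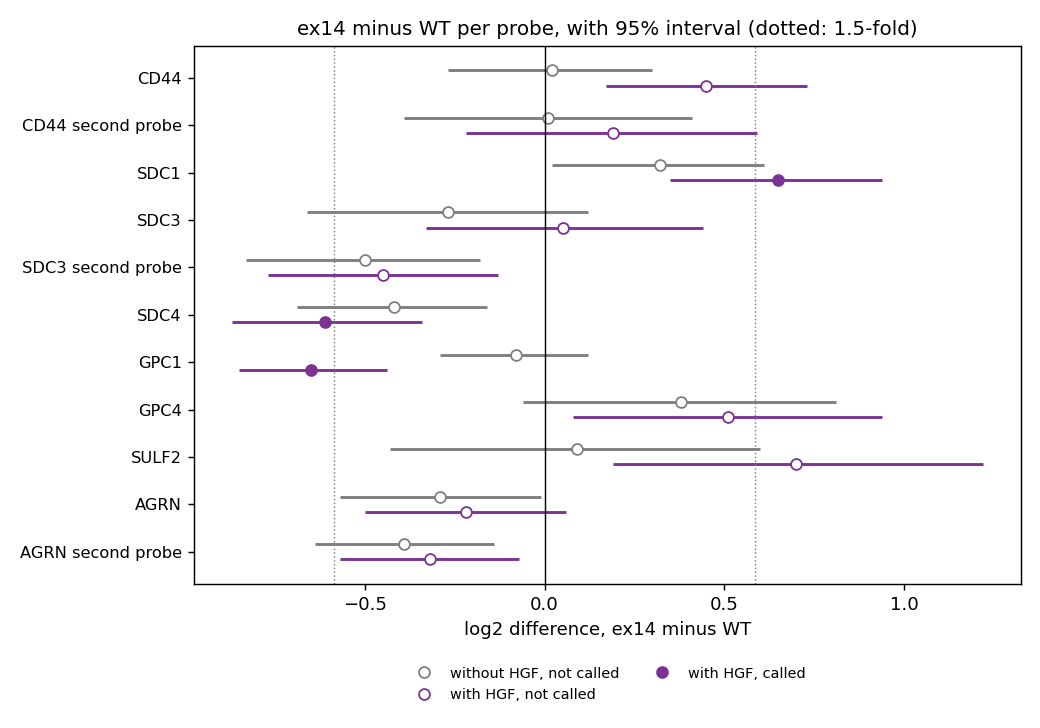
Differences between the genotypes for the 11 tested member probes, without HGF (grey) and with HGF (purple). Points are log2 differences, ex14 minus WT, lines are limma's 95% intervals from 4 arrays per group, filled points were called and dotted lines mark a 1.5-fold change. With HGF, SDC1 (0.65), SDC4 (−0.61) and GPC1 (−0.65) were called, and no probe was called without HGF.

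Members were compared with each other over the 16 arrays, which share their scaling and slides, as a description. CD44 and SDC1 had a Pearson r of 0.87, and of 0.82 after the group means were removed. CD44 and GPC1 had an r of −0.87, which was −0.41 within groups. SDC1 and SDC4 went opposite ways over all arrays (r = −0.63) but the same way within groups (r = 0.72). GPC1 and AGRN had an r of 0.45, and of 0.67 within groups.

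Among 25092 probes above background on all 16 arrays, those most like a called member over the 16 arrays were found in the same way. For GPC1 they were MYLK, TRIM29 and MAL (r = 0.98 each). HMGA2 and SMIM29 (0.97 each) and the transcript ENST00000452010 (0.98) were closest to CD44. CAVIN3 (0.99), MAP2K3 and ENST00000578280 (0.98 each) were closest to SDC1, and MFSD14A, PRMT2 and IL6ST (0.97 each) to SDC4. The r within groups was between 0.72 for GPC1 with MAL and 0.98 for SDC1 with MAP2K3.

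The 250 bases before the start of CD44 and GPC1, the genes called with HGF in ex14 in opposite directions, are shown from RefSeq on GRCh38.p14, with the GC box letters GGGCGG, read on either strand, in capitals. Both genes lie on the plus strand.
CD44, chr11:35138921-35139170: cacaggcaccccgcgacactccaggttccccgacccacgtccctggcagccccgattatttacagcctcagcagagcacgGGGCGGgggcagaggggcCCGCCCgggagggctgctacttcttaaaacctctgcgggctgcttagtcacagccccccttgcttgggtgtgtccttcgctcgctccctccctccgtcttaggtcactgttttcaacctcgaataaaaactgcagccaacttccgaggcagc
GPC1, chr2:240435413-240435662: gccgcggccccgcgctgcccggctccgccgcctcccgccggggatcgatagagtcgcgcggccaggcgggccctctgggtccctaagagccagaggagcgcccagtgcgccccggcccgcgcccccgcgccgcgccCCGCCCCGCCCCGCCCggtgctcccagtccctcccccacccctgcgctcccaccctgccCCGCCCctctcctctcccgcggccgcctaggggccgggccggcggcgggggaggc
CD44 held 2 GC boxes in a window of 62.4% G and C, and GPC1 held 4, of which neighbouring matches share a base, in a window of 84% G and C. Across all 35116 RefSeq promoter windows of 250 bases, 42.6% held the GC box. SDC1, SDC3, SDC4, GPC4 and SULF2 held it as well, between 1 and 8 times. The AP-1 letters TGANTCA, which 6.57% of all windows held on either strand, were in none of these 7 windows. These matches describe letters only.

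Genes that make, cut or bind the same sugar chains were counted from lists of related genes, with the brightest tested probe for each gene. The share of all tested probes called with HGF in ex14, 2.00%, stands beside the counts of that comparison. Among 24 tested of 31 listed enzymes of heparan sulfate chain synthesis, 2 rose with HGF in ex14 and none fell, with a median difference of 0.06. Of 9 other core proteins and part-time proteoglycans, 1 rose (median 0.02), and of 5 genes for cutting and shedding, 1 rose (median −0.11). None of 7 cytoplasmic partners of the syndecans was called (median −0.14), and of 13 tested genes for hyaluronan and CD44 partners 1 fell (median −0.13). Neither MET nor any other of 6 tested genes for MET and its ligand was called (median 0.03). In WT, and for the difference between the responses, no gene of any list was called.

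The 5 genes called with HGF in ex14 came from 4 of the lists. In WT the HGF differences of the same genes had the same signs and none was called. They were 0.71 for MMP9, 0.67 for NRP1, 0.06 for EXTL1, 0.30 for HS3ST3A1 and −0.41 for CD24. MMP9, a secreted protease that can shed syndecan ectodomains, went from 2.43 ± 0.46 to 3.87 ± 0.28 (SD, n = 4 each), a difference of 1.44 (limma adjusted p = 0.0112). NRP1, a receptor for semaphorins and VEGF that can carry a glycosaminoglycan chain, rose by 0.93 (adjusted p = 0.0384), and its other tested probes gave 0.96 (adjusted p = 0.0127) and 1.11 (adjusted p = 0.0618). EXTL1, an exostosin-like transferase, rose by 0.89 (adjusted p = 0.00207), and HS3ST3A1, a 3-O-sulfotransferase, by 0.59 (adjusted p = 0.031). The HS3ST3A1 groups overlapped. With scaling to the spike-ins or to each array's median both calls were lost, at 0.85 and 0.77 for NRP1 and 0.51 and 0.43 for HS3ST3A1. Leaving out 1 array at a time ended the NRP1 call in 10 of 16 fits (0.77 to 1.10 over all 16) and the HS3ST3A1 call in 6 of 16 (0.50 to 0.75). With normexp the EXTL1 difference was 0.26 and its call was lost (adjusted p = 0.0668). EXTL1 was dim in ex14, at −4.11 to −3.77, near the lowest level called well above background (median −4.40 over arrays). CD24 is a small lipid-anchored glycoprotein whose sequence has near-identical copies in the genome. Its probe is annotated to a copy on chromosome Y, so which copy it reads is uncertain. The CD24 probe fell by 1.15 on the log2 scale (adjusted p = 0.00325).

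**Figure D4:**
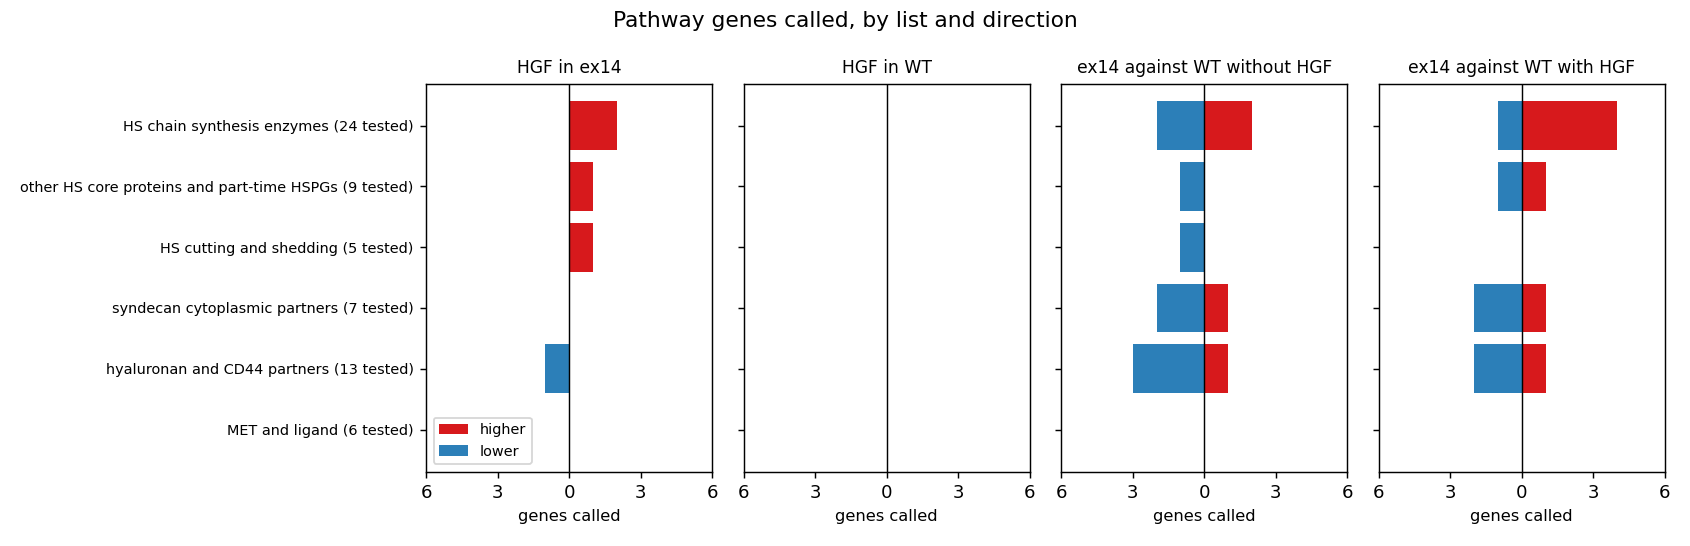
Number of genes called in each list of related genes, in 4 comparisons, with higher genes to the right (red) and lower genes to the left (blue). The number tested stands beside the name of each list, and HS is heparan sulfate. HGF in WT has no called gene, and between the stimulated genotypes 4 synthesis enzymes are higher and 1 lower of 24 tested.

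Between the genotypes without HGF, 2 synthesis enzymes were higher and 2 lower in ex14 (median −0.05), and 1 of 9 other core proteins and 1 of 5 cutting and shedding genes were lower (medians 0.07 and −0.16). Of 7 syndecan partners 1 was higher and 2 lower (median −0.54), and of 13 hyaluronan and CD44 partners 1 was higher and 3 lower (median −0.04). With HGF in both, 4 synthesis enzymes were higher and 1 lower (median −0.02), and 1 other core protein was higher and 1 lower (median −0.13). The syndecan partners were again 1 higher and 2 lower (median −0.54), the hyaluronan and CD44 partners 1 higher and 2 lower (median −0.14), and no cutting and shedding gene was called (median −0.28). Over all tested probes 9.40% were called without HGF and 10.8% with it, and the medians were −0.02 and 0. These counts rest on the brightest probe of each gene. For NRP1, not called by that probe, both other probes were called higher in ex14, at 0.79 and 0.91 without HGF and at 1.06 and 1.78 with it. The second probe of SPOCK2, another core protein, was likewise called higher, at 0.88 and 0.91, while its brightest probe gave 0.07 and 0.10. Some calls counted here were not shared by every probe of the gene. Without HGF, CASK was called at −0.74 and −0.84, but its remaining probe gave 0.14. NDST2 was called at 0.68 and 0.59, but its remaining probe gave −0.34. HYAL3 was called at −0.62 but not at −0.50, and HSPG2 at −0.80 but not at −0.44, −0.61 and −0.61.

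CEMIP, which takes part in breaking down hyaluronan, and CD74, a receptor chain for the cytokine MIF that signals with CD44, were each above background in only 1 of the genotypes. CEMIP was above background on all WT arrays and on no ex14 array, and was at least 4.98-fold lower in ex14 without HGF (limma adjusted p = 6.32e-08) and at least 4.40-fold lower with HGF (adjusted p = 9.39e-08). CD74 was above background on all ex14 arrays and on no WT array, and was at least 6.17-fold higher without HGF (adjusted p = 5.95e-05) and at least 4.22-fold higher with HGF (adjusted p = 0.000327). These bounds set the brighter group against, on each array, the higher of the lowest signal well above background and the dim probe's own signal. With normexp the log2 differences were smaller, −0.95 and −0.79 for CEMIP and 0.80 and 0.54 for CD74, and the CD74 call with HGF was lost.

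CD24, by its uncertain probe annotated to chromosome Y, was 5.25 ± 0.23 in WT and 3.29 ± 0.31 in ex14. The difference was −1.96 without HGF (limma adjusted p = 5.86e-06) and −2.70 with HGF (adjusted p = 2.54e-07). EXTL1 was lower in ex14 without HGF by −1.02 (adjusted p = 8.41e-05), but with HGF the difference was −0.19 (adjusted p = 0.34). With normexp the EXTL1 difference without HGF was −0.45, under the fold limit, and it rests on the dim ex14 levels given above. HS3ST6, a 3-O-sulfotransferase, was well above background on all 4 WT arrays and on 1 of 4 ex14 arrays, so that the size of its difference, −1.55 as fitted (limma adjusted p = 0.0226), is uncertain. Its call was lost with normexp (−0.38), with only the compared groups (adjusted p = 0.0632) and without WT replicate 1 (adjusted p = 0.0549) or WT replicate 2 (adjusted p = 0.058). With HGF, HSPG2, the basement membrane proteoglycan perlecan, was lower by −1.26 (limma adjusted p = 0.000733). PAPSS2, which makes the sulfate donor for the chains, was higher with HGF by 1.23 (limma adjusted p = 6.63e-06). Both were also called without HGF, at −0.80 for HSPG2 (limma adjusted p = 0.0171) and 0.89 for PAPSS2 (limma adjusted p = 0.000118). Another HSPG2 probe was called with HGF (−0.99), but those at −0.82 (limma adjusted p = 0.161) and −0.88 (limma adjusted p = 0.0635) were not.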

How the data were processed

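Labelled RNA of 16 samples had been hybridised to 1-colour Agilent arrays. In the authors' files the deposited spot intensity came from Agilent Feature Extraction 10.7.3.1, linear and corrected for background, with no scaling between arrays. The deposited series table held the same intensity values. From these, outlier spots were left out, log2 was taken, the 75th percentile of each array subtracted and spots of a probe averaged. A probe was tested if it was marked well above background on 4 or more of the 16 arrays, with limma 3.58.1 (R 4.3.3, with version 1.17.8 of data.table and jsonlite 2.0.0) with 1 mean per group, empirical Bayes moderation and Benjamini-Hochberg adjustment within each comparison. The authors also used limma and the same limits. Python 3.11.15, pandas 2.3.3 and matplotlib 3.10.9 drew the figures and read the sequences. The number of arrays limits the precision, since intensities carry no counts.

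All 10 members were described with all their probes. The rule named, of the related genes, at most 5 called genes per comparison by size of the difference, MET and HGF, and the 3 genes most like each called member. Members and lists were chosen with earlier results of these data known. Markers of epithelial, fibroblast, endothelial and leukocyte cells were checked: of 6 endothelial markers 2 were above background on all 4 arrays of each group, and of 4 leukocyte markers on the array 3 were. The fit was tested on simulated data. The alternatives were other background correction, normalization, scaling, filters, blocks, priors, limits and arrays left out.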

Additional observations from a re-analysis of the deposited data

Results flagged for a closer look

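The CD44 level of WT+HGF replicate 2 was 5.55, while the other 3 arrays of that group lay between 5.76 and 5.79. Its distance from the nearest of them was 0.88 of the range of the group, above the 95% limit of Dixon's test for 4 samples. It was the only such case among 44 sets of 4 arrays, and chance flags about 1 in 20.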

How the results depend on the processing

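No called difference of a member turned its sign under any alternative. Of 750 member values under alternatives that kept all replicates or a slide, 721 stayed on their side of the limits. Among these, values of unchanged sign could move by any amount. Those that changed sign moved by less than the spread between arrays of a group. Another 15 lost the call and 9 gained it. The remaining 5 also stayed uncalled, but changed sign and moved by more than the spread between arrays of a group. In all, 24 values that were not called changed sign, the largest at 0.34. For HGF in ex14, where 2 member probes were called, the count was 3 with normexp, 1 with only the compared groups fitted, 0 on slide 1 alone, 0 on slide 2 alone and 3 with no fold limit. Leaving out each array in turn gave 2 to 4, with 4 without ex14 replicate 3 and 3 without ex14+HGF replicate 1. For ex14 against WT with HGF, where 3 were called, it was 2 with normexp, 2 with scaling to the array median, 2 with the spike-ins, 2 on slide 1 alone, 1 on slide 2 alone and 5 with no fold limit, while it was 4 with quantile normalization, slide as a block, the filter on all arrays or the trended prior, and 2 to 4 with an array left out. Without HGF it was 3 with no fold limit. The slides hold 2 arrays per group each. The CD44 call was lost with only the compared groups (adjusted p = 0.058). The replicate block (array row) gave 2 member probes called for HGF in ex14 and 3 between the stimulated genotypes, and changed no call of a member. Arrays of the same row correlated at 0.03 to 0.32 after group means were removed, and 4 of 16 correlated best with their own row, so the numbers were not taken as pairs. The median correlation was 0.21 within a row, 0.21 with the other row of the same slide and −0.2 between slides. With slide as a block, 825 probes were called for HGF in ex14 and 4112 between the stimulated genotypes, against 693 and 3749 in the main fit. Over all probes, the 693 called for HGF in ex14 became 411 with normexp, 246 with only the compared groups and 0 on either slide alone. With scaling to the array median 24.1% of its calls were higher, with the spike-ins 40.5%, against 52.2%, and the median of all probes moved from 0.05 to −0.11. Between the stimulated genotypes 66% and 60% were higher under those scalings, 58.8% with normexp and 35.4% with no filter on dim probes, against 49.1%. Of 398 values of called related genes, 71 lost the call. Probes not well above background, SDC2 and SULF1 among them, could not be compared.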
